A study of Mus musculus with 18 samples.

Results

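The genes described are the antibody heavy chain constant genes Igha, Ighm, Ighd, Ighg1, Ighg2b and Ighg2c, the light chain constant genes Igkc, Iglc1 and Iglc2, and Jchain. These 10 of the 32285 genes in the count matrices were chosen by name, not by a measured value. They were followed in plasma cells, in B cells and in T cells of 3 mouse gut tissues: the colon, and the lamina propria and the epithelium of the small bowel. A plasma cell was a cell with at least 1 molecule each of Mzb1, Xbp1 and Derl3, secretory genes of plasma cells, and no Cd3e, a subunit of the T cell receptor complex. A B cell held the surface protein gene Ms4a1 (CD20), no Cd3e and was not a plasma cell, and a T cell held Cd3e and no Ms4a1. T cells do not make antibody, so antibody molecules there were read as the level of free RNA that droplets pick up. Ighm did not follow the other members in T cells, and whether its molecules there were free RNA was not tested.

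The study compared mice lacking St8sia6 (KO), heterozygous (het) and wild type (WT) mice. The product of St8sia6 is a sialyltransferase and extends glycans with sialic acid. The procedure was run 3 times, each time with 1 KO, 1 het and 2 WT mice, so a WT value pools 2 animals. All cells were taken from a percoll gradient and enriched for CD45, the surface protein of blood-derived cells, and the colon preparation joined lamina propria and epithelium. The sources used here give no treatment, sex, age, background strain or design of the St8sia6 allele. The 3 genotypes of a tissue carried different hashtag antibodies and were pooled before capture in droplets, and 18 samples resulted, 9 of gene expression and 9 of hashtags. Each tissue's matrix held 9 barcode endings, which formed 3 captures of 3 genotypes. Because captures carry no run label, a capture of the colon was not paired with one of the small bowel.

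An antibody heavy chain joins a variable region, built from rearranged gene segments, to a constant region whose gene sets the isotype: Ighm for IgM, Ighd for IgD, the Ighg genes for IgG and Igha for IgA. Naive B cells make IgM and IgD together from a single transcript by splicing, and class switch recombination replaces Ighm with a downstream gene. Light chains carry the kappa constant region of Igkc or a lambda constant region. Gut plasma cells mainly make dimeric IgA, whose 2 units are joined by the J chain, and the epithelial receptor encoded by Pigr carries such antibodies into the gut lumen.

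In GRCm38.p6, the heavy chain genes lie together on chromosome 12, with Igha at 113256204 to 113260236, Ighg2c at 113287389 to 113288932, Ighg2b at 113304314 to 113307933 and Ighg1 at 113326541 to 113330523. Ighd spans 113407535 to 113416324 and Ighm 113418826 to 113422730. Igkc is on chromosome 6 at 70726435 to 70726754, Iglc1 on chromosome 16 at 19061752 to 19062071 and Iglc2 on chromosome 16 at 19198536 to 19198852. Jchain is a separate protein-coding gene on chromosome 5 at 88519809 to 88527897. The Ighg genes are close copies of each other, as are Iglc2 and its relative Iglc3, so their split between copies is uncertain.

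Among the 10 genes a promoter sequence was at hand for Jchain, from RefSeq on GRCm38.p6. It is printed because Jchain was the member whose level in plasma cells was most alike in colon and lamina propria, and because it lies on its own promoter, away from the antibody loci. The line gives the 250 bases before the start of Jchain (chr5:88527898-88528147, minus strand), with capitals for E-box letters CANNTG, the sequence read by E proteins of B cells, and for GGAA or its complement, the core read by ETS factors such as PU.1.
Jchain promoter: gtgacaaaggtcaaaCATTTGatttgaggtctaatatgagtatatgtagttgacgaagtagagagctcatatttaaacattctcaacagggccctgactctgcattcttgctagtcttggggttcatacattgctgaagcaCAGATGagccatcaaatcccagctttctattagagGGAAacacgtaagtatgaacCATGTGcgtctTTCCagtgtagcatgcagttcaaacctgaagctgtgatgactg
Both strands were searched. CANNTG occurred 3 times, 235, 109 and 54 bases before the start, and 66.2% of 32851 promoters of this length held it. GGAA occurred 2 times, at 74 and 43 bases, and 93.4% of promoters held it. The octamer ATGCAAAT, the sequence of antibody variable promoters, had 0 matches in these 250 bases and was present in 1.60% of promoters. ACGT, the core letters of sites for bZIP factors such as Xbp1, occurred 1 time at 68 bases and in 26.9% of promoters. None of these matches shared bases with another.

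In the order colon, lamina propria, epithelium, the matrices held 191560456, 158556738 and 99383902 molecules, and 21286, 21347 and 16705 cells passed the filters. In the same order, plasma cells numbered 1599, 6691 and 88, with 11724996 to 12298654, 28418013 to 32671018 and 658145 to 807722 molecules per capture. The median plasma cell of these tissues held 22784, 11562 and 24602 molecules. In the lamina propria, the WT ending of capture 3 stood apart: the WT hashtag was the highest in 55.69% of its barcodes, against 95.66% to 100% in the other lamina propria endings, and its median cell held 1420 molecules. In the epithelium, the WT endings of captures 1 and 2 also had a lower share, 84.18% and 72.51%. No barcode was shared by 2 endings of a capture.

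The label of the plasma cells was checked with 4 markers that did not choose them, Sdc1, Prdm1, Irf4 and Tnfrsf17, whose summed level was 512 to 556 CPM (molecules per 1000000 molecules of the sum) in the colon. Lamina propria captures had 576 to 603 CPM and epithelial ones 485 to 523. The T cell marker list summed to 15.1 to 20.4, 14.7 to 25.5 and 7.43 to 41.9 CPM in the same cells, against 1827 to 2202, 607 to 804 and 3762 to 3944 in T cells. B cell markers (a list with Ms4a1, Cd79a, Cd79b, Pax5 and Cd22, some of which plasma cells keep) summed to 1136 to 1342 CPM in colon plasma cells, 898 to 933 in lamina propria plasma cells and 1000 to 1883 in epithelial ones. Ms4a1 itself stood at 53.9, 4.26 and 69.2 CPM, so the colon and epithelial gates held more cells with a B cell marker. The epithelial list summed to 187 to 254, 85.7 to 113 and 105 to 219 CPM.

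St8sia6 was measured first in plasma cells to check the genotype labels. In the colon it stood at 18.2, 17.2 and 18.3 CPM in KO captures 1 to 3, at 21.7, 29.2 and 28.6 in het and at 37.3, 39.1 and 33.6 in WT. In the lamina propria it stood at 34.8, 37.6 and 39.3 in KO, 50.2, 58.4 and 57.8 in het and 59.6, 75.0 and 71.1 in WT. KO was below het and het below WT in every capture of both tissues, and no KO value was at 0; the sources used here do not say which exons the KO lacks. In the 5 to 17 epithelial plasma cells per genotype and capture that order did not hold: KO, het and WT stood at 69.3, 47.2 and 50.6 in capture 2, and het was at 65.1 against 35.9 in WT in capture 3. KO minus WT was -0.93 on the log2 scale in the lamina propria (SE 0.061, adjusted p = 0.00973, edgeR) and -0.78 in the colon (SE 0.14, adjusted p = 0.135).

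Igha gave the most constant gene molecules of plasma cells in every tissue and was 5.68-fold lower in colon plasma cells than in lamina propria plasma cells. Igkc and Iglc1 were lower by 3.83-fold and 3.88-fold, Ighd was 2.94-fold higher from a low level, and Jchain had the smallest difference of the 10 genes. CPM values are not divided by gene length. By edgeR's quasi-likelihood test over 12537 genes, with Benjamini-Hochberg adjustment and n = 3 captures per tissue, 4 of the 10 genes passed, 1 higher and 3 lower in the colon, where 38.1% of all genes passed. A change of this kind was therefore common among genes of these cells. The 10 genes had a median log2 difference of 0.09 and all genes tested 0.02. The p-values measure the spread between captures.

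Igha, the constant gene of IgA, held 35329, 35683 and 35567 CPM in colon captures 1 to 3, and 171716, 171946 and 198046 in the lamina propria. Epithelial plasma cells held 55215, 43426 and 85419. The colon and lamina propria ranges lay far apart, and the epithelium lay between them. The colon minus lamina propria difference was -2.51 on the log2 scale (SE 0.55, adjusted p = 0.00658, edgeR), and it stayed past the threshold in all 17 alternative settings run.

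Igkc, the kappa constant gene, held 27811, 19583 and 22514 CPM in the colon, 81457, 78179 and 81746 in lamina propria and 37670, 32415 and 36755 in epithelium. Its order of tissues was that of Igha, with no overlap between any 2 tissues. The colon minus lamina propria difference in Igkc was -1.94 (SE 0.47, adjusted p = 0.00995, edgeR), and without colon capture 3 its adjusted p was 0.0542.

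Of the lambda genes, Iglc1 held 568, 773 and 836 CPM in the colon and 3047, 2329 and 2180 in the lamina propria, a log2 difference of -1.96 (SE 0.47, adjusted p = 0.00974, edgeR). Iglc2 held 1336, 830 and 1339 in the colon and 2446, 1873 and 2336 in the lamina propria, a difference of -1.07 (SE 0.39) whose adjusted p of 0.0547 by edgeR missed the threshold and passed it in 6 of 17 alternative settings. Both lambda genes were lower in every colon capture than in any lamina propria capture. Epithelial plasma cells held 1269, 2070 and 4522 of Iglc1 and 1873, 1182 and 1968 of Iglc2, which overlapped the lamina propria.

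Jchain, whose product joins IgA and IgM units, held 54560, 51558 and 56548 CPM in the colon, 55140, 55542 and 55188 in lamina propria and 51851, 38842 and 53143 in epithelium. The 3 colon captures lay on both sides of those of the lamina propria. The log2 difference was -0.18 (SE 0.46, 95% interval -1.08 to 0.72, adjusted p = 0.780, edgeR). That interval does not show equal levels, but it holds neither the Igha nor the Igkc difference.

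Ighm, the constant gene of IgM, held 66.8, 238 and 185 CPM in colon plasma cells and 104, 83.3 and 120 in those of the lamina propria, with overlapping captures. Its log2 difference was 0.49 (SE 0.84, adjusted p = 0.679, edgeR). Epithelial captures 1 to 3 held 78.0, 1397 and 89.6, so that 1 of 3 stood far above the others. Ighd, which is spliced from the same transcript as Ighm in naive B cells, held 6.31, 9.55 and 4.15 in the colon and 2.33, 2.04 and 1.64 in the lamina propria. Its level was low in both. Its difference of 1.56 (SE 0.28, adjusted p = 0.00259, edgeR) moved with the higher B cell markers of the colon gate. The part of these markers in it was not tested. Free Ighd in T cells without plasma cell genes stood at 4.24 to 5.67 CPM in the colon and 3.54 to 4.73 in the lamina propria. Plasma cell Ighd overlapped that level in the colon and lay below it in the lamina propria.

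The IgG genes varied from capture to capture. Ighg1 held 206, 22.6 and 50.8 CPM in the colon and 16.7, 12.0 and 98.8 in the lamina propria, a log2 difference of 0.98 (SE 0.89, adjusted p = 0.411, edgeR). Without lamina propria capture 3 it was 2.59 with an adjusted p of 0.0457, and without colon capture 1 it was -0.40. Single captures thus set both its size and its sign. Ighg2b held 536, 526 and 645 in the colon and 425, 319 and 435 in the lamina propria (log2 difference 0.37, SE 0.88, adjusted p = 0.767, edgeR; -0.27 with a stricter gate, described further on), and Ighg2c held 614, 166 and 333 against 19.3, 226 and 65.1 (1.74, SE 1.67, adjusted p = 0.437). In the epithelium Ighg2c and Ighg2b were high in different captures: Ighg2c stood at 2008 in capture 1, and Ighg2b at 3373 and 2045 in captures 2 and 3.

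Epithelial plasma cells, 31, 27 and 30 per capture, were compared with the lamina propria in the same fit. Of the 10 genes 1 passed, Ighd with a log2 difference of 1.78 (SE 0.51, adjusted p = 0.0468, edgeR), where 13.4% of all genes passed. This Ighd value rested on 18 molecules in the epithelium, present in 4.55% of the 88 cells, at 4.56 to 11.1 CPM per capture. Igha at -1.77 (SE 0.54, adjusted p = 0.0576) and Igkc at -1.40 (SE 0.46, adjusted p = 0.0736) did not pass by edgeR, and passed in 6 and 4 of 16 alternative settings. The Jchain difference was -0.41 (SE 0.46, adjusted p = 0.610). The other members did not pass either: Ighm had 1.85 (SE 0.87), Ighg1 -3.25 (SE 1.53), Ighg2b 1.81 (SE 0.91), Ighg2c 2.72 (SE 1.73), Iglc1 -0.18 (SE 0.45) and Iglc2 -0.60 (SE 0.39), with adjusted p of 0.192 to 0.835 by edgeR. The plot of members by gate shows these levels beside those of B and T cells.

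**Figure D1:**
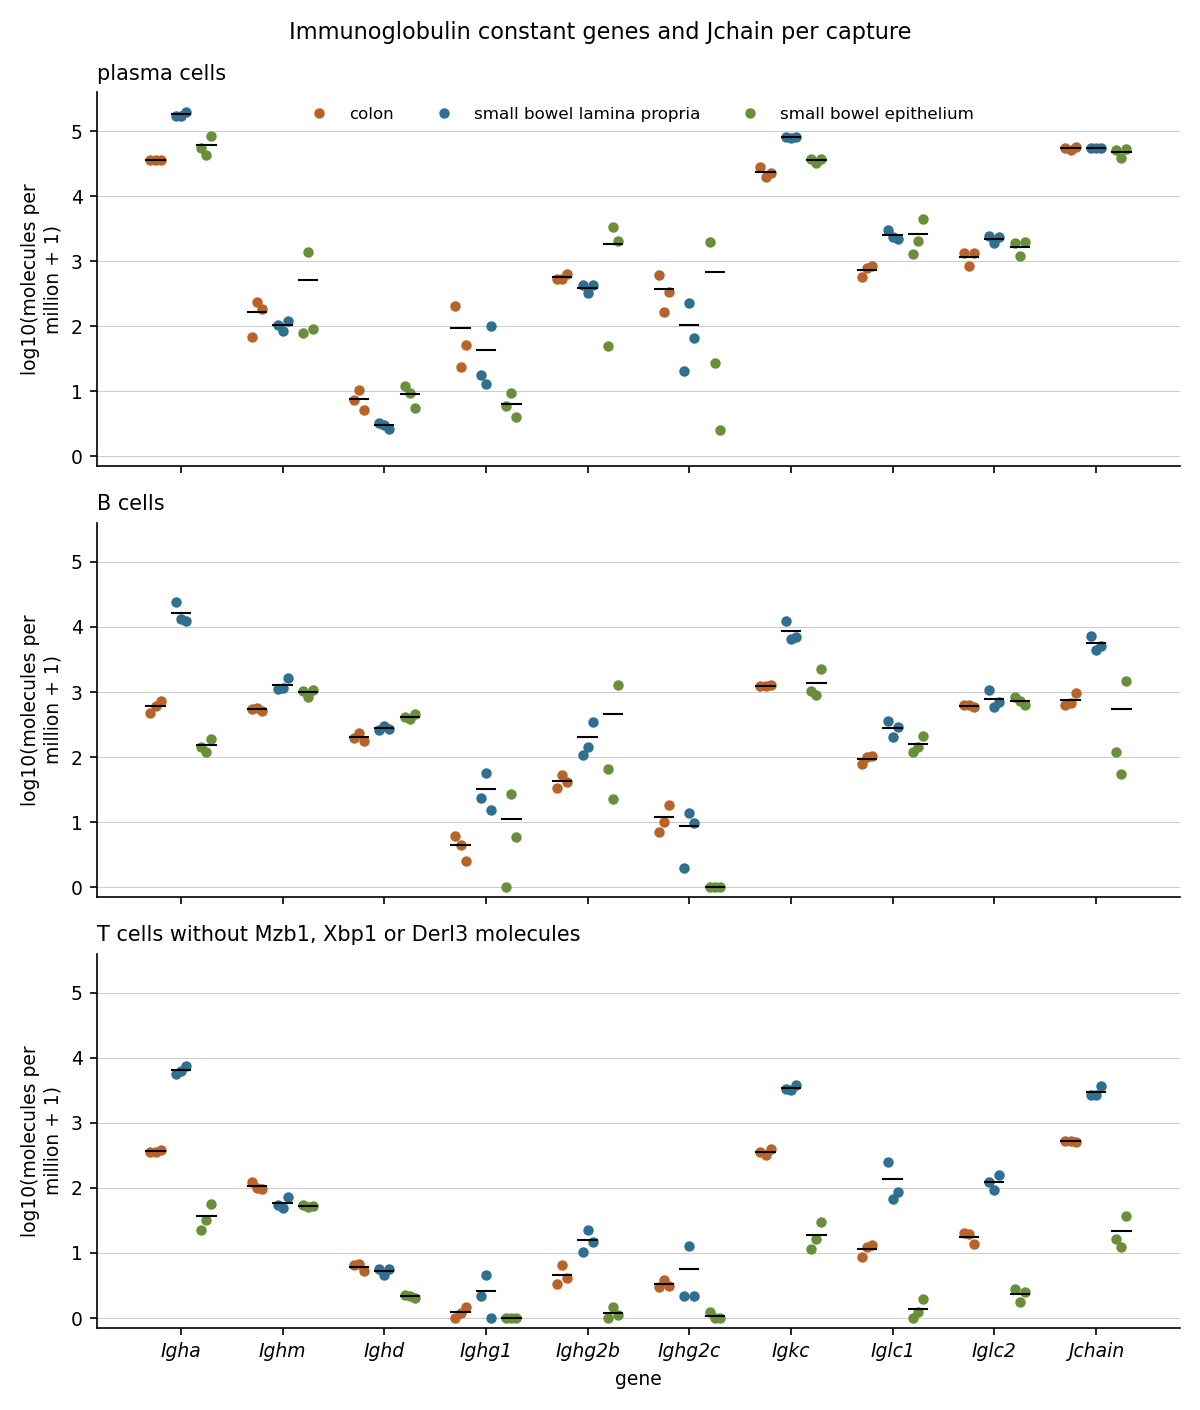
Levels of the 10 genes, as log10 of CPM plus 1, in plasma cells, B cells and T cells without plasma cell genes. Each point is a capture, the bars are means over 3 captures and the colours are tissues. In plasma cells Igha lies near 35526 CPM in the colon and 180570 in the lamina propria while Jchain lies near 54222 and 55290.

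The members' constant regions were set against the variable regions of the same chains. In a 5' library a molecule is counted under the gene its reads fall on, so an antibody transcript can be counted under its variable or its constant gene. All antibody genes together, variable and constant, with Jchain, made up 56.9%, 54.7% and 56.8% of the molecules of colon plasma cells and 57.4%, 55.9% and 57.9% of those of the lamina propria. In the epithelium the shares were 58.6%, 44.5% and 57.3%. The total was thus nearly the same in colon and lamina propria, and its make-up was not. Variable genes held 44.7%, 43.8% and 45.0% in the colon against 25.9%, 24.7% and 23.8% in the lamina propria, and constant genes 6.70%, 5.83% and 6.22% against 26.0%, 25.6% and 28.6%.

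For heavy chains, the ratio of constant to variable molecules was 0.215, 0.219 and 0.219 in the colon, 0.339, 0.494 and 0.750 in the epithelium and 2.88, 2.98 and 3.69 in the lamina propria. For kappa it was 0.103, 0.0756 and 0.0831 in the colon and 0.436, 0.432 and 0.462 in the lamina propria. The same ratio was then taken for the T cell receptor genes of T cells, which share the capture but no gene with antibodies. It was 0.435, 0.404 and 0.355 in the colon, 0.830, 0.715 and 1.05 in the epithelium and 3.00, 2.85 and 2.94 in the lamina propria. The order of tissues was the same for antibody genes in plasma cells and receptor genes in T cells. The lower Igha, Igkc and Iglc1 of the colon therefore moved together with a lower constant to variable ratio in another cell type, and the part of that ratio in their differences was not tested.

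**Figure D2:**
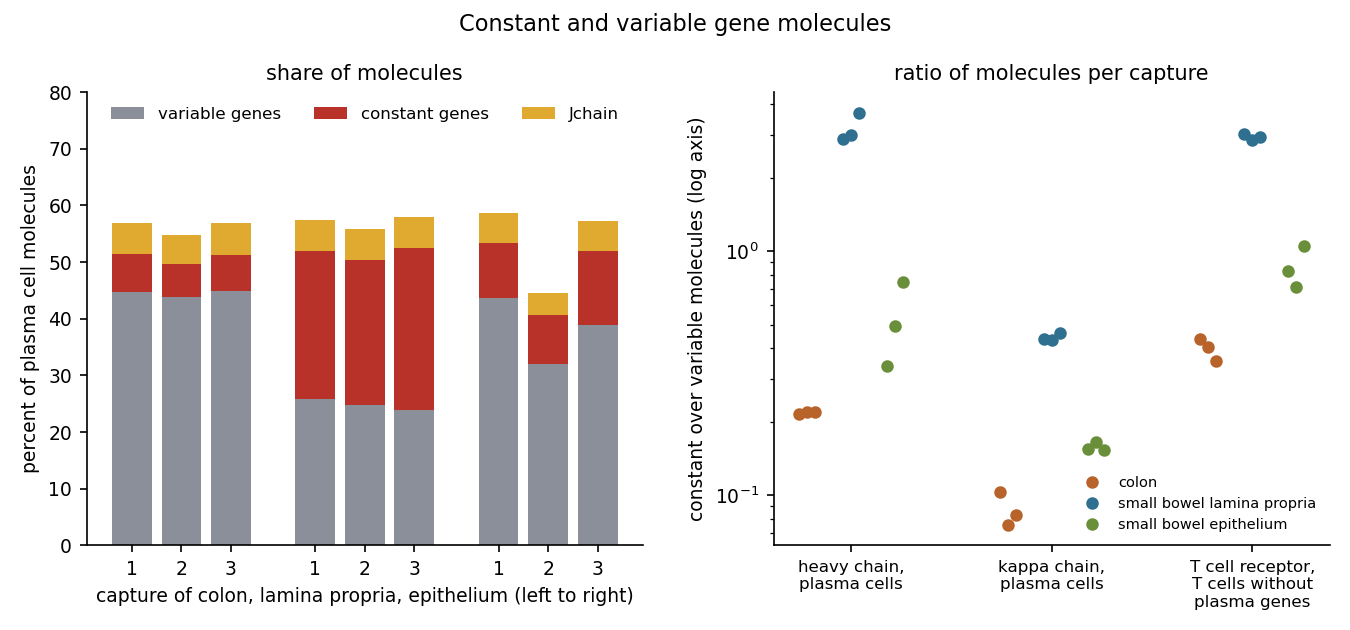
Left, percent of plasma cell molecules on antibody variable genes, constant genes and Jchain, stacked per capture. Right, constant to variable ratio on a log axis for heavy and kappa chains of plasma cells and for the T cell receptor of T cells without plasma cell genes, a point per capture. Colon captures show a small constant share (5.83% to 6.70%) and low ratios for all 3 chains, lamina propria captures a large one (25.6% to 28.6%) and high ratios.

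Cell by cell, Igha made up a median of 3.30% of a colon plasma cell's molecules, 19.4% of a lamina propria and 6.18% of an epithelial one. The lowest 10% of colon plasma cells held at most 0.0815% Igha, and the lowest 10% in the lamina propria at most 10.8%. The colon gate thus held cells with almost no Igha, and most lamina propria cells held far more. Free Igha was 0.0367% of molecules in colon T cells without plasma cell genes and 0.651% in lamina propria ones. A cell with almost no Igha of its own would therefore show more of it in the lamina propria. Jchain had medians of 5.41%, 5.58% and 5.50%. Correlations pooled the cells of a tissue over captures and genotypes, and these cells differed in molecule count. The shares of Igha and Jchain had a Pearson r of 0.290 in the colon (1599 cells), 0.309 in the lamina propria (6691 cells) and 0.464 in the epithelium (88 cells). Those of Igha and Igkc had 0.570, 0.406 and 0.598.

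The members were next compared with each other, as shares of the heavy chain constant molecules of plasma cells. IgA was the main isotype of plasma cells in all 3 tissues, and the colon held a larger minority of IgG and IgM than the lamina propria. Igha made up 96.1%, 97.4% and 96.7% of heavy chain constant molecules in the colon and 99.6% in each lamina propria capture, with means of 96.7% ± 0.64 and 99.6% ± 0.011 (SD, n = 3). The IgG genes together made up 3.71%, 1.96% and 2.81% in the colon and 0.293%, 0.327% and 0.306% in the lamina propria. Ighm made up 0.182%, 0.650% and 0.502% against 0.0601%, 0.0483% and 0.0602%. For each of these 3 shares no colon capture overlapped the lamina propria, and the two-sided exact permutation p was 0.1, the smallest that 3 against 3 can give, or 0.2 adjusted over 36 tests of shares. Epithelial plasma cells had IgA shares of 96.2%, 88.1% and 97.5%, also below the lamina propria (exact permutation p = 0.1).

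Counted by cell, a plasma cell took the isotype that held at least 80% of its heavy chain constant molecules, of which it needed at least 10. IgA cells were 92.4%, 90.8% and 94.1% of called colon cells and 99.5%, 99.3% and 99.2% of called lamina propria cells. IgG cells were 3.61%, 2.86% and 2.23% in the colon and 0.256%, 0.345% and 0.215% in the lamina propria, and IgM cells 0.601%, 1.23% and 0.928% against 0.0427%, 0.0493% and 0%. In lamina propria capture 3, 0 of 2322 cells were IgM. These shares did not overlap between the tissues either (two-sided exact permutation p = 0.1 for each, adjusted 0.2). Free Igha, higher in the lamina propria, counts towards a cell's heavy chain molecules, and its part in these calls by cell was not tested. In cells thinned to 5000 molecules, IgG cells were 3.85%, 3.02% and 2.22% in the colon and 0.228%, 0.422% and 0.232% in the lamina propria.

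The minority isotypes of the colon were seen in cells that carry B cell markers. Ms4a1 was present in 65.9% of the 44 colon IgG cells, 71.4% of the 14 IgM cells and 84.2% of the 57 cells with mixed isotypes, against 12.6% of the 1412 IgA cells, although these had the highest median molecule count. With a stricter gate (at least 2 molecules of each plasma cell gene and no Ms4a1) the colon minus lamina propria difference in IgG molecules was 1.38 percentage points in place of 2.52, in IgG cells 1.11 in place of 2.63, and in IgA cells -1.86 in place of -6.93. The direction stayed and the size fell by more than 1.5 times. Near the 80% mark, 19 colon cells had a top isotype of 70% to 80% and 28 of 80% to 90%, and 9 and 13 lamina propria cells did.

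Within IgG, the 44 colon cells were led by Ighg2b in 28, by Ighg2c in 14 and by Ighg1 in 2. The 18 lamina propria IgG cells were led by Ighg2b in 12, Ighg2c in 3, Ighg1 in 2 and Ighg3 in 1. Ighg2b was the leading IgG gene in both tissues, within the uncertainty of reads shared between these close copies.

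Lambda chains made up 7.97%, 9.36% and 11.3% of light chain constant molecules in colon plasma cells, 7.05%, 5.86% and 6.11% in lamina propria ones and 8.58%, 10.9% and 16.0% in epithelial ones. Kappa was the main light chain everywhere. The colon mean was 9.54% ± 1.66 and that of the lamina propria 6.34% ± 0.63 (SD, n = 3), without overlap (two-sided exact permutation p = 0.1, adjusted 0.2). By cell, lambda cells were 1.76%, 3.78% and 3.13% in the colon and 3.55%, 2.18% and 1.77% in the lamina propria, which overlapped (exact permutation p = 0.8). The 2 measures thus differed: more lambda constant molecules were not matched by more lambda cells. Lambda variable genes held 2.53%, 4.28% and 3.90% of light chain variable molecules in the colon and 6.04%, 4.47% and 4.07% in the lamina propria. These shares overlapped and did not show the larger lambda share of the colon. The lambda constant to variable ratio was 0.344, 0.175 and 0.261 against 0.515, 0.576 and 0.709. The part of the lambda and kappa ratios in the lambda share was not tested. In plasma cells with kappa variable molecules and no lambda ones (128 in the colon and 201 in the lamina propria), lambda still held 10.8% and 2.95% of light chain constant molecules. These cells held medians of 9088 and 5592 molecules, against 22784 and 11562 in all plasma cells of the 2 tissues, so they were not typical of them. Cells with kappa variable molecules alone thus carried lambda constant molecules in both tissues, at a larger share in the colon. Cells with both light chains, neither holding 80%, were 10.4%, 11.9% and 13.3% in the colon and 2.09%, 1.93% and 1.64% in the lamina propria. Among lambda molecules, Iglc1 held 23.6%, 38.2% and 29.2% in the colon and 49.3%, 47.8% and 41.0% in the lamina propria, again without overlap (exact permutation p = 0.1).

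**Figure D3:**
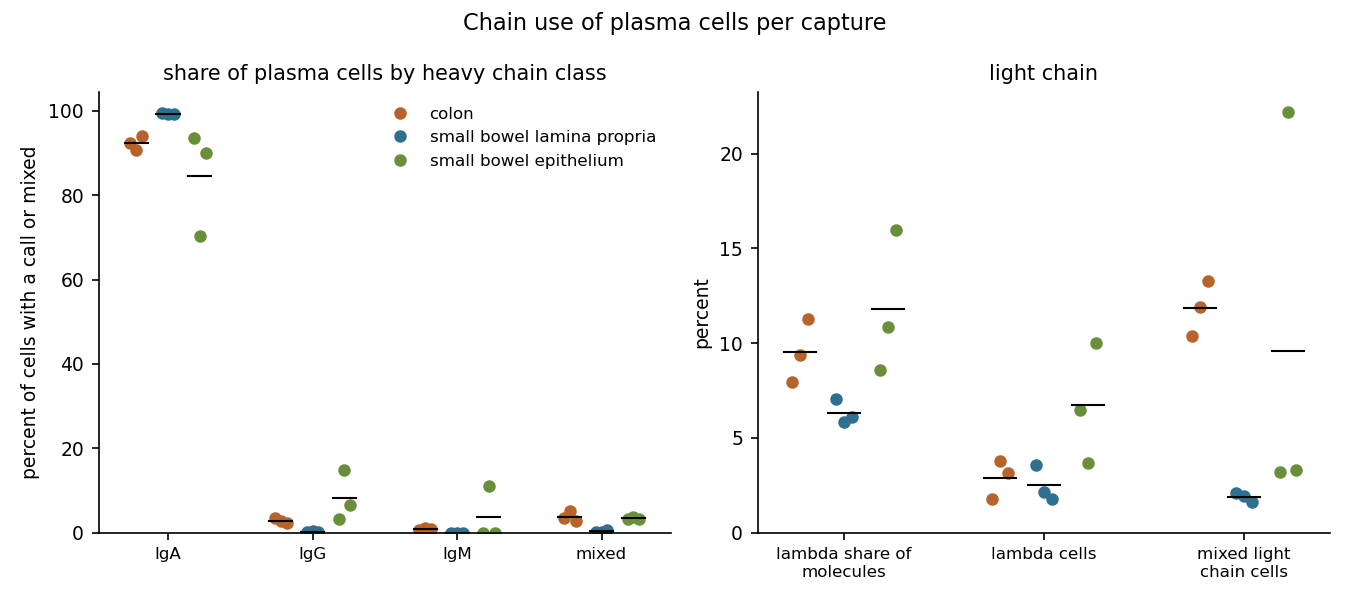
Left, percent of called plasma cells that are IgA, IgG, IgM or mixed. Right, lambda percent of light chain constant molecules and the percent of cells called lambda or with both light chains. Points are captures and bars means over 3 captures. IgA cells are 90.8% to 94.1% in the colon and 99.2% to 99.5% in the lamina propria.

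Jchain differed between isotypes within a tissue. In colon captures 1 to 3 it made up 5.78%, 5.61% and 5.90% of the molecules of IgA cells, 2.96%, 2.05% and 2.99% of IgG cells and 0.351%, 1.44% and 2.42% of IgM cells. In the lamina propria it made up 5.52%, 5.57% and 5.54% in IgA cells and 3.65%, 2.65% and 2.47% in IgG cells, and in the epithelium 5.42%, 5.36% and 5.54% against 1.48%, 1.27% and 1.90%. Jchain was lower in IgG than in IgA cells in every capture of every tissue. IgM cells, whose isotype the J chain joins, were also below IgA cells wherever they were found. Outside the colon they held 3.93% and 0.502% in lamina propria captures 1 and 2 (1 cell each) and 0.469% in epithelial capture 2 (3 cells). IgG and IgM cells carried Ms4a1 more often than IgA cells, and its part in the Jchain shares was not tested. IgA cells held nearly the same Jchain share in all 3 tissues, although their Igha levels differed several fold. These classes were not tested, and the groups of IgG and IgM cells are small (44 and 14 in the colon).

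B cells carried a different set. Ighm and Ighd were present at over 100 CPM in every tissue, and B cells of the lamina propria held more Igha, Igkc and Jchain than those of the colon. By edgeR over 9005 genes, 7 of the 9 members tested were lower in the colon than in the lamina propria and none higher, where 42.9% of all genes passed; Ighg2c was too low to be tested. The lamina propria B cell sums held 1101 cells in all and those of the colon 6873. In B cells the heavy chain ratio of constant to variable molecules was 0.586, 0.659 and 0.443 in the colon. It was 5.50, 4.65 and 3.52 in lamina propria and 1.41, 1.23 and 1.23 in epithelium. For kappa it was 0.200, 0.174 and 0.170 in the colon, 0.618, 0.492 and 0.388 in lamina propria and 0.232, 0.249 and 0.144 in epithelium. The part of these ratios in the B cell differences between tissues was not tested.

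Ighm held 556, 559 and 505 CPM in colon B cells, 1094, 1153 and 1663 in lamina propria B cells and 1049, 823 and 1090 in epithelial ones. Ighd held 197, 237 and 178 in the colon, 257, 298 and 272 in lamina propria and 409, 383 and 465 in epithelium. Both genes of naive B cells were lowest in the colon in every capture. The colon minus lamina propria log2 differences were -1.33 for Ighm (SE 0.16, adjusted p = 0.000173, edgeR) and -0.50 for Ighd (SE 0.13, adjusted p = 0.0101), and that for Ighd was lost in WT cells alone (adjusted p = 0.122) and without colon capture 3 (0.0557). Ighd in the epithelium was above the lamina propria by 0.54 (SE 0.13, adjusted p = 0.0135, edgeR). The ratio of Ighm to Ighd molecules was 2.82, 2.36 and 2.84 in the colon, 4.25, 3.87 and 6.11 in lamina propria and 2.56, 2.15 and 2.34 in epithelium.

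Igha in B cells stood at 468, 613 and 724 CPM in the colon, 24231, 13364 and 12140 in lamina propria and 145, 117 and 190 in epithelium. It followed the order of free Igha in T cells of the same tissues, given further on. Its log2 differences from the lamina propria were -4.87 in the colon (SE 0.32, adjusted p = 2.01e-05, edgeR) and -6.87 in the epithelium (SE 0.36, adjusted p = 8.15e-06). Igkc held 1227, 1239 and 1285 in the colon against 12252, 6584 and 6924 in the lamina propria, a difference of -2.86 (SE 0.36, adjusted p = 0.000227, edgeR). Jchain held 628, 675 and 973 in the colon against 7149, 4461 and 5091 (-2.95, SE 0.91, adjusted p = 0.0229, edgeR), and leaving out any of colon captures 1, 2 and 3 or lamina propria capture 1 raised that p to between 0.0512 and 0.0713. Free Igkc in T cells, given further on, stood at 316 to 390 CPM in the colon and 3148 to 3778 in the lamina propria, and free Jchain at 513 to 531 and 2653 to 3621. Between colon and lamina propria the free levels of Igha, Igkc and Jchain thus moved with the B cell levels, and their part in the B cell differences was not tested. In the epithelium free Igkc was 10.6 to 28.5 CPM and free Jchain 11.4 to 35.8, both below the colon. B cell Igkc (908 to 2232) and Jchain (53.8 to 1450) of the epithelium overlapped the colon. Plasma cell markers that did not choose the gate summed to 236 to 271 CPM in colon B cells and 247 to 276 in lamina propria B cells, which overlapped. The B cell marker list summed to 4645 to 5472 CPM in colon B cells and 3893 to 4252 in lamina propria ones, and the epithelial list to 563 to 882 against 99.7 to 173. Both lists were higher in the colon without overlap, and their part in these differences was not tested.

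Among the other members, Iglc1 held 76.9, 98.1 and 103 CPM in colon B cells and 352, 200 and 289 in lamina propria ones (-1.67, SE 0.25, adjusted p = 0.000527, edgeR). Ighg1 was low in both, at 5.12, 3.52 and 1.54 against 22.4, 55.6 and 14.6 (-3.24, SE 0.68, adjusted p = 0.00351). Neither gene overlapped between the 2 tissues. In B cells without a Derl3 molecule Ighg1 did overlap, at 1.59 to 4.64 CPM in the colon and 0 to 59.4 in the lamina propria. The lamina propria B cells held 106 Ighg1 molecules in all. Iglc2 (-0.43, SE 0.20, adjusted p = 0.106, edgeR) and Ighg2b (-2.31, SE 1.07, adjusted p = 0.103) did not pass.

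Against the lamina propria, 5 of 9 members passed in epithelial B cells, 1 higher and 4 lower, where 25.1% of all genes passed. Beside Ighd, Igha, Igkc and Jchain the one that passed was Iglc1 (-0.92, SE 0.26, adjusted p = 0.0249, edgeR). Ighm (-0.45, SE 0.16), Iglc2 (-0.19, SE 0.20), Ighg1 (-1.52, SE 0.83) and Ighg2b (1.13, SE 1.06) did not, with adjusted p of 0.0581 to 0.527 by edgeR. Epithelial B cell capture 3 stood apart for 3 members. Its Ighg2b level was 1285 CPM against 65.4 and 21.5 in captures 1 and 2, its Igkc 2232 against 1039 and 908 and its Jchain 1450 against 118 and 53.8. The het cells of that capture held 4578 of Ighg2b, 5458 of Igkc and 5308 of Jchain. Without epithelial capture 1, the Jchain difference of -3.44 (SE 0.94, adjusted p = 0.0223, edgeR) had an adjusted p of 0.0652.

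Lambda molecules were 47.7%, 49.3% and 45.5% of light chain constant molecules in colon B cells, while lambda variable genes held 3.36%, 4.10% and 4.42% of light chain variable molecules in the same cells. In 4127 colon B cells with kappa variable molecules and no lambda ones, Igkc was present in 95.6% and a lambda constant gene in 86.8%, and lambda held 46.2% of light chain constant molecules. Constant and variable counts thus gave different lambda shares for the same cells. The lambda level of B cells is reported as counted, with this disagreement.

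T cells were used to gauge how much antibody RNA reaches cells that do not make antibody, with Ighm set apart below. The T gate was uneven: of 5749 colon cells 571 held molecules of all 3 plasma cell genes, and of 2746 lamina propria cells 846 did. In these cells Igha made up 3.83% of molecules in the colon and 14.5% in the lamina propria, near the plasma cell values, and the median molecule count was 30091 and 19087. The T gate cells with none of the 3 genes numbered 2638, 975 and 9265 in colon, lamina propria and epithelium, and Igha made up 0.0367%, 0.651% and 0.00372% of their molecules. Cells with all 3 genes held the T cell gene Cd3d in 90.0% and the plasma cell gene Sdc1 in 93.5% in the colon, and 67.4% and 91.5% in the lamina propria. They carry the markers of both cell types; doublets were not called.

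**Figure D4:**
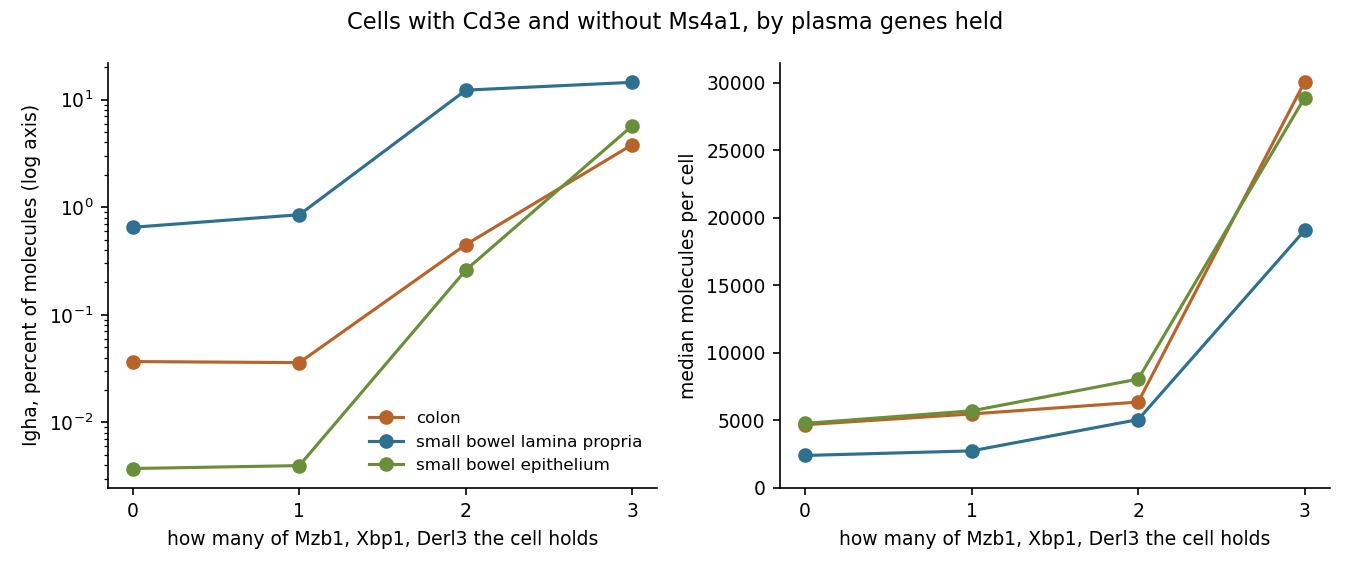
T gate cells by the number of Mzb1, Xbp1 and Derl3 genes with a molecule, from 0 to 3. Left, Igha percent of molecules on a log axis, and right, median molecules per cell, with a line per tissue. Igha lies at 0.00372% to 0.651% with none of the 3 genes and at 3.83% to 14.5% with all 3.

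In T cells without any plasma cell gene, Igha held 358, 359 and 385 CPM in the colon, 5703, 6271 and 7520 in lamina propria and 21.3, 31.5 and 55.0 in epithelium. Igkc held 355, 316 and 390, 3289, 3148 and 3778, and 10.6, 15.4 and 28.5 in the same order, and Jchain 531, 531 and 513, 2653, 2703 and 3621, and 15.4, 11.4 and 35.8. The free level was highest in the lamina propria and lowest in the epithelium for all 3 genes, with no overlap of tissues. By edgeR, 7 of the 8 members tested passed between colon and lamina propria, 1 higher and 6 lower, where 40.8% of all genes passed; the Igha log2 difference was -4.34 (SE 0.28, adjusted p = 2.55e-07). Igkc had -3.46, Jchain -2.70, Iglc1 -3.84, Iglc2 -3.07 and Ighg2b -2.22, Ighm was the higher one, and Ighd at 0.08 (adjusted p = 0.911) did not pass. Ighg1 and Ighg2c were too low to be tested. Between epithelium and lamina propria 7 of 8 passed, all lower, where 44.3% of genes passed, with Igha at -7.69 (SE 0.32, adjusted p = 5.29e-09), Igkc at -7.73, Jchain at -7.35, Iglc1 at -8.41, Iglc2 at -6.71, Ighg2b at -6.21 and Ighd at -2.06. Over the whole T gate 5 of 10 members passed between colon and lamina propria (51.4% of all genes), and 10 of 10 between epithelium and lamina propria (63.7%), all of them lower.

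Ighm did not follow the other members in T cells. It held 123, 99.6 and 95.2 CPM in the colon, 53.3, 47.2 and 72.6 in lamina propria and 52.9, 50.1 and 52.4 in epithelium, so the colon was highest. The colon minus lamina propria difference was 0.69 (SE 0.17, adjusted p = 0.00553, edgeR) and epithelium minus lamina propria -0.36 (SE 0.17, adjusted p = 0.101). In the whole T gate the same colon difference was -0.17 (adjusted p = 0.279, edgeR) and with library totals alone 0.44, so its direction depends on the scaling and on the cells with plasma cell genes. The ratio of Ighm to Igha was 0.247 to 0.344 in colon T cells against 0.00189 to 0.00668 in colon plasma cells, and 0.954 to 2.48 against 0.00105 to 0.0322 in the epithelium. The ratio of Jchain to Igha was 1.33 to 1.48 in colon T cells and 1.44 to 1.59 in colon plasma cells. It was 0.431 to 0.481 against 0.279 to 0.323 in the lamina propria, and 0.722, 0.361 and 0.652 against 0.939, 0.894 and 0.622 in epithelial captures 1 to 3. The ratio of Igkc to Igha in the colon was 0.880 to 1.01 in T cells and 0.549 to 0.787 in plasma cells. The Jchain ratios of T cells and plasma cells overlapped in the colon but not in the lamina propria, those of Igkc did not overlap in the colon, and the Ighm ratios lay furthest apart. Epithelial T cells without plasma cell genes held a mean of 51.8 CPM of Ighm and 1.18 of Ighd. In epithelial B cells the ratio of Ighm to Ighd was 2.15 to 2.56. The source of the Ighm molecules in T cells was not tested.

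Plasma cells held 59.5% of all Igha molecules of the colon, 74.1% of those of the lamina propria and 64.4% of those of the epithelium. In the same order they held 19.1%, 57.0% and 2.24% of the molecules of all genes. T gate cells with all 3 plasma cell genes held a further 30.3%, 11.9% and 29.2%, and B cells 0.935%, 0.246% and 0.152%. Jchain lay in plasma cells for 63.5%, 74.9% and 64.1% and Igkc for 59.9%, 75.5% and 64.9%. Ighd and Ighm, the genes of naive B cells, were placed otherwise. Ighd lay in B cells for 76.6% of its molecules in the colon, 46.2% in lamina propria and 71.9% in epithelium, and Ighm for 52.5%, 21.4% and 20.3%. Lamina propria Ighm lay more in plasma cells, with 46.3% of its molecules, than in B cells, and colon plasma cells held 16.8%. Lamina propria plasma cells held 57.0% of the molecules of all genes and B cells 2.08%. The Ighm share there was thus below that share in plasma cells and above it in B cells. In the epithelium 40.1% of Ighm molecules lay in T cells, which made up 79.3% of the cells and held 74.7% of all molecules there. The Ighm share of epithelial T cells was thus below their share of all molecules.

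No member passed between KO and WT in plasma cells of the colon or the lamina propria. By edgeR with the capture as a block, 0 of 10 members passed in the colon, where 0.0383% of 10440 genes passed, and 0 of 10 in the lamina propria, where 0.0415% of 12053 did. At an unadjusted p under 0.05 there were 2 members in the colon, beside 1413 of the 10440 genes, and 1 in the lamina propria, beside 1440 of the 12053. DESeq2 called Igkc and Iglc2 among 87 genes in the colon, and no member among 112 genes in the lamina propria. The epithelium had too few plasma cells per genotype for a fit.

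In colon plasma cells Igha stood at 36487, 37695 and 36667 CPM in KO captures 1 to 3, at 37248, 34518 and 36764 in het and at 32981, 34858 and 31975 in WT. Igkc stood at 29250, 20312 and 23836 in KO, 31927, 20928 and 22674 in het and 23957, 18694 and 19456 in WT. Jchain stood at 57113, 53834 and 56618 in KO, 57853, 49378 and 59737 in het and 49893, 50911 and 53253 in WT. For all 3 genes KO was above WT in each capture, by a margin smaller than the difference between captures for Igkc. KO minus WT was 0.40 for Igha (SE 0.24, adjusted p = 0.511, edgeR), 0.48 for Igkc (SE 0.24, adjusted p = 0.432) and 0.37 for Jchain (SE 0.24, adjusted p = 0.557). With library totals alone, which lower the median of all genes to -0.25 from 0.00, these became 0.15, 0.23 and 0.12. By DESeq2 Igkc had 0.48 with an adjusted p of 0.00907 and Iglc2 0.57 with 0.0167.

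The B cell marker list moved with genotype in the same colon cells: it summed to 1034, 1141 and 990 CPM in KO plasma cells, 1051, 1111 and 1126 in het and 1324, 1540 and 1466 in WT. WT lay above KO and het in every capture. In lamina propria plasma cells it summed to 939, 908 and 929 in KO and 923, 866 and 859 in WT. With the stricter gate, the Jchain difference between KO and WT in the colon was -0.05. The part of the B cell markers in the genotype values was not tested.

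In the lamina propria Igha stood at 164104, 173458 and 197436 in KO and 176917, 173016 and 201726 in WT, which overlapped, with KO minus WT at -0.10 (SE 0.077, adjusted p = 0.682, edgeR). Igkc stood at 76429, 76984 and 81706 in KO, 81184, 73313 and 77844 in het and 84852, 82880 and 85537 in WT, a difference of -0.16 (SE 0.079, adjusted p = 0.492, edgeR), and Jchain at 53921, 55961 and 55040 in KO and 57299, 56248 and 55693 in WT (-0.09, SE 0.073, adjusted p = 0.694). Lamina propria WT values of Igkc and Jchain were the higher ones in each capture. Ighm stood at 182, 94.9 and 138 in KO, 101, 71.1 and 127 in het and 54.6, 79.4 and 78.4 in WT (0.87, SE 0.24, adjusted p = 0.258, edgeR). In the colon, Ighm stood at 50.6, 104 and 99.4 in KO, 49.2, 599 and 57.9 in het and 94.7, 199 and 496 in WT (-1.26, SE 0.73, adjusted p = 0.495, edgeR). KO was below WT in each colon capture, but het was below both in captures 1 and 3 and above both in capture 2, so the genotypes had no common order. With the stricter gate the colon difference between KO and WT was 0.86.

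Ighg1 in colon plasma cells stood at 478, 19.4 and 91.1 in KO and 7.54, 21.6 and 12.2 in WT, so that KO captures 1 and 3 were high and capture 2 was not (3.86, SE 1.33, adjusted p = 0.283, edgeR). The other members had differences between KO and WT of -0.96 for Ighd, -0.21 for Ighg2b, -0.93 for Ighg2c, -0.15 for Iglc1 and 0.57 for Iglc2 in the colon, with adjusted p of 0.349 to 0.920 by edgeR. Lamina propria values were 0.36 for Ighd, -1.16 for Ighg1, 0.16 for Ighg2b, -0.72 for Ighg2c, 0.01 for Iglc1 and -0.13 for Iglc2, with adjusted p of 0.725 to 0.998. The test of whether the KO effect itself differed between colon and lamina propria called 0 of 10 members, where 0.00811% of 12327 genes passed; at an unadjusted p under 0.05 there were 6 members and 1573 of the 12327 genes, and DESeq2 was not run for this test.

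**Figure D5:**
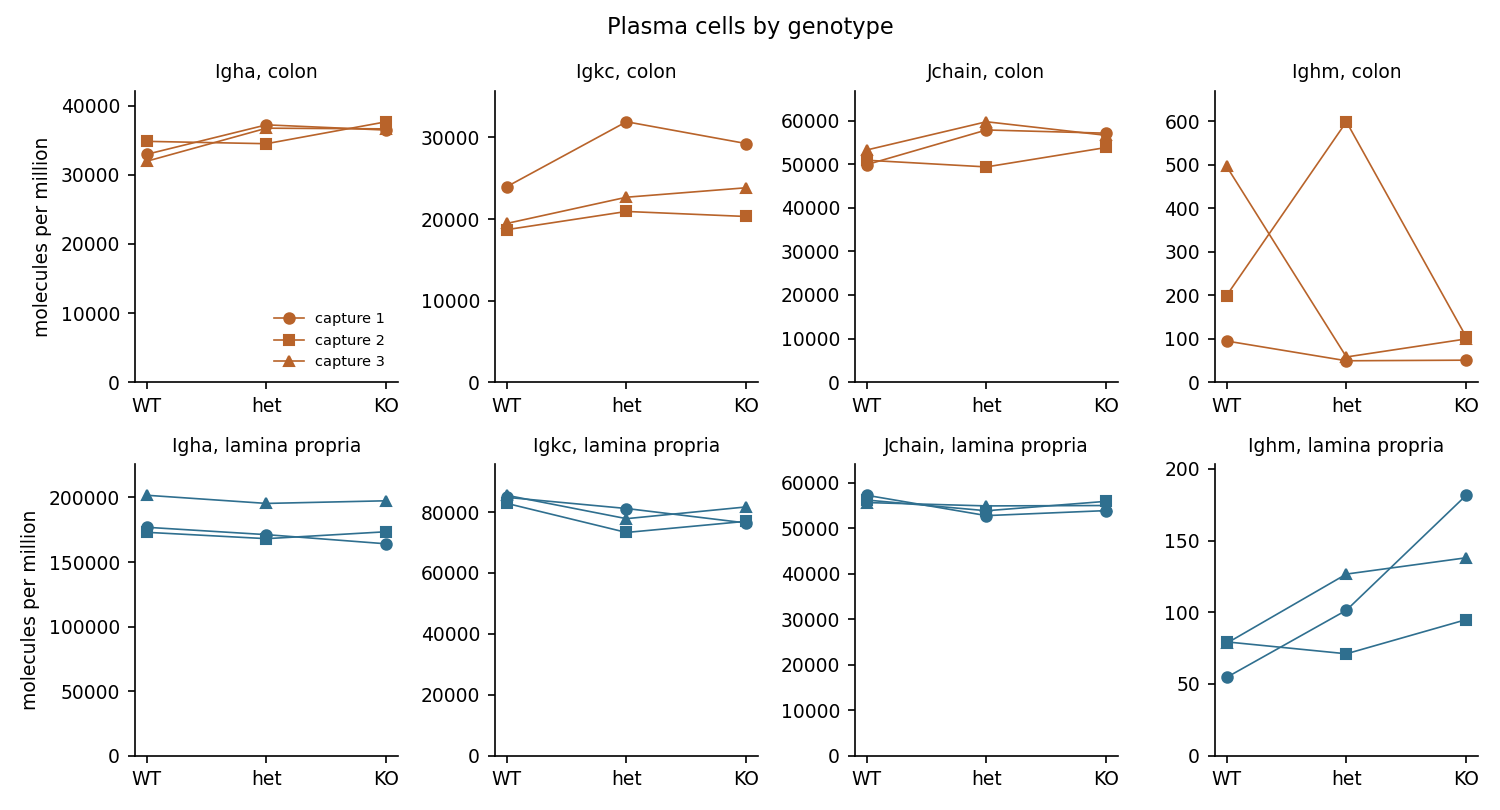
Igha, Igkc, Jchain and Ighm in plasma cells, in CPM, by genotype, with colon above and lamina propria below. Each point is a genotype in a capture, lines join the 3 genotypes of a capture and axes start at 0. Colon Igkc of KO (20312 to 29250) lies above WT of the same capture (18694 to 23957) in all 3 captures.

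Isotype shares by genotype were tested in the same way as those by tissue, with a permutation of genotypes over captures that makes no use of their pairing. In the colon, IgA cells were 93.4%, 92.9% and 95.4% of called plasma cells in KO and 89.4%, 88.0% and 89.6% in WT, without overlap (two-sided exact permutation p = 0.1, the smallest possible). With the stricter gate the difference was -0.324 percentage points in place of its positive main value, so its direction depends on the gate. IgM cells were 0.490% ± 0.15 in KO and 1.88% ± 0.99 in WT (SD, n = 3, exact permutation p = 0.1). In the lamina propria, Ighm made up 0.0781% ± 0.029 of heavy chain molecules in KO and 0.0384% ± 0.0075 in WT (exact permutation p = 0.1). Lambda shares overlapped between KO and WT in both tissues.

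In B cells 0 members passed between KO and WT by edgeR (0 of 10 in the colon, 0 of 9 in lamina propria and 0 of 8 in epithelium), where 0.0262%, 0.0163% and 0.102% of all genes passed. At an unadjusted p under 0.05 there were 2, 5 and 1, and 0 by DESeq2 in each tissue. In the whole T gate 0 passed by edgeR (0 of 10, 9 and 8), where 0%, 0.0287% and 0.33% of genes passed, with 0, 4 and 4 at an unadjusted p under 0.05 and 0, 2 and 0 by DESeq2. The 2 were Igkc (-0.61, adjusted p = 0.00863, DESeq2) and Jchain (-0.53, adjusted p = 0.0496), and both also had an unadjusted p under 0.05 by edgeR. DESeq2 called 100 of 10469 genes there. In the same T gate cells of the lamina propria, the T cell marker list summed to 658, 739 and 996 CPM in KO and 422, 555 and 561 in WT. The B cell list summed to 631, 638 and 503 against 761, 662 and 624, and the epithelial list to 175, 95.8 and 137 against 400, 195 and 395. KO was higher in T cell markers and lower in the other 2 lists in every capture, and their part in the Igkc and Jchain differences was not tested. In lamina propria capture 3, the WT T cells without plasma cell genes held 14072 Igha CPM against 8600 in het and 6156 in KO; this is the ending with the weak hashtag.

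In T cells without plasma cell genes 0 members passed by edgeR between KO and WT in any tissue, where 0.0391% of all genes passed in the colon, 0.0726% in lamina propria and 0.814% in epithelium, with 0, 4 and 1 members at an unadjusted p under 0.05. DESeq2 was not run on these cells. Het was compared with WT in the same fits. In plasma cells 0 members passed by edgeR, where 0.00958% of genes passed in the colon and 0% in the lamina propria, with 1 and 0 at an unadjusted p under 0.05 and 1 and 0 by DESeq2. In B cells of colon, lamina propria and epithelium 0 passed by edgeR or DESeq2, where 0.114%, 0.0327% and 0.305% of genes passed by edgeR, with 2, 0 and 1 members at an unadjusted p under 0.05. In the whole T gate 0 passed by either tool, where 0%, 0.00955% and 0.294% of genes passed by edgeR, with 2, 0 and 1 unadjusted. In T cells without plasma cell genes 0.00978% of genes passed in the colon, 0.0181% in lamina propria and 1.54% in epithelium, and the members that passed numbered 0, 0 and 1.

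The 1 member called between het and WT was Ighm in the epithelium. It stood at 98.0, 116 and 63.5 CPM in WT, 41.1, 28.0 and 48.7 in het and 52.3, 54.3 and 38.9 in KO. WT was the highest in every capture. Het minus WT was -1.24 (SE 0.21, adjusted p = 0.0164, edgeR, 12537 genes tested), and KO minus WT did not pass. WT captures 1 and 2 of the epithelium are the ones with the lower hashtag share. In the whole T gate of the epithelium, the epithelial marker list summed to 702, 710 and 609 CPM in WT and 521, 354 and 515 in het. It was higher in WT in every capture, as Ighm was, and its part in the Ighm difference was not tested.

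Of 26 genes of plasma cell function and IgA traffic listed beside the members, 10 passed between colon and lamina propria plasma cells, 6 higher and 4 lower in the colon, with a median log2 difference of 0.01. Of all genes 38.1% passed, so the count of the list lay near the background. Ccr9, the receptor that guides cells to the small bowel, held 2.82, 5.54 and 4.96 CPM in the colon against 56.5, 59.3 and 56.9 in lamina propria and 52.0, 75.4 and 77.5 in epithelium. It was the clearest of the list (log2 difference -3.86, SE 0.19, adjusted p = 1.48e-05, edgeR). The B cell gene Pax5 was higher in the colon (2.06, adjusted p = 0.00843, edgeR). Prdm1, which encodes the plasma cell regulator Blimp-1, was lower in the colon at 68.3, 64.7 and 68.7 against 116, 106 and 121 (-0.92, SE 0.17, adjusted p = 0.00238). Pigr, made by epithelium, was higher at 50.2, 40.8 and 39.7 against 14.6, 12.9 and 18.2 (1.35, SE 0.28, adjusted p = 0.00451), as was the epithelial marker list.

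Between epithelial and lamina propria plasma cells, 7 of the 26 passed, 4 higher and 3 lower, where 13.4% of all genes passed. Pax5 (3.01, adjusted p = 0.0187, edgeR) and the BAFF receptor gene Tnfrsf13c (1.08, adjusted p = 0.0151) were higher. The plasma cell surface genes Sdc1 (-0.66, adjusted p = 0.0197) and Tnfrsf17 (-0.84, adjusted p = 0.0247) and the folding gene Fkbp11 (-0.82, adjusted p = 0.0171) were lower. Between KO and WT 0 of the 26 passed in plasma cells by edgeR, with 10 at an unadjusted p under 0.05 in the colon and 5 in the lamina propria, and by DESeq2 7 and 1 passed. Over all genes the unadjusted counts were 1413 of 10440 and 1440 of 12053, and DESeq2 called 87 and 112.

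Over 36 sums of 3 tissues, 3 captures and 4 gates (plasma, B, T and other cells), 26864 genes were ranked by the Pearson r of log2 of CPM plus 1 with Jchain and with Igha. Nearest to Jchain were Tnfrsf17 (r = 0.964), Ccr10 (0.963), Tent5c (0.952), Dusp14 (0.941) and the agouti gene a (0.938). Nearest to Igha were Tram2 (0.963), Cacna1h (0.958), Trp53inp1 (0.954), Jchain (0.953) and Cped1 (0.950). Tnfrsf17 encodes the survival receptor BCMA and Ccr10 a homing receptor of IgA plasma cells. The sums share captures and gates, so these values are descriptions.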

How the data were processed

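Gene expression and hashtag libraries of 3 mouse gut tissues were measured in 18 samples. The authors deposited raw counts of molecules (UMI counts) per gene or hashtag and cell, not normalized, with lists of barcodes, gene names and hashtags as other values. Cell Ranger, Seurat and mm10 are named, without versions, per the submitters' processing notes. Cells with 200 to 8000 genes, 300 to 50000 molecules and mitochondrial counts under 20% were kept, as in the study's own filter, and 401 colon, 253 lamina propria and 280 epithelial cells fell out. No doublet caller was run, and cells with Cd3e and Ms4a1 together (667, 56 and 56) entered no T cell or B cell sum.

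Each barcode ending was given the genotype of its highest median hashtag, and the 3 endings without a shared barcode formed a capture. The genotypes of a capture are paired, because per the labels they were pooled by organ before the run, and the capture was a block in KO against WT. Counts were summed per gate and capture, or per gate and ending, leaving out sums under 10 cells. All genes were tested with edgeR 4.0.16 (R 4.3.3, limma 3.58.1; TMM factors, filterByExpr, quasi-likelihood test, adjusted p under 0.05), with the 3 tissues or 3 genotypes in a fit. DESeq2 1.42.0 was an alternative. Recovery of planted changes was tested on simulated data. Shares were compared by two-sided exact permutation tests (scipy 1.17.1), and 95% intervals of log2 differences come from the SE and the normal distribution. Variable genes were those named Ighv (185), Igkv (160) and Iglv (3), and T cell receptor genes 163 variable and 3 constant. Other tools were Python 3.11.15, numpy 2.4.6, pandas 2.3.3 and matplotlib 3.10.9. Positions and the promoter came from RefSeq's GRCm38.p6.

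All 10 members are accounted for in every comparison: by name between tissues (over the whole T gate by counts) and between KO and WT plasma cells, and otherwise, where few or none passed, by counts with the members that passed, with Ighg3, Ighe and Iglc3 where a result turns on them. Of the 26 listed genes, those past the threshold are named, at most 6 by adjusted p. Some of these genes are counted in the list and its totals but are not reported here by name. Genes of like pattern are the 5 with the highest r, leaving out gate and antibody genes. The members and lists were chosen with earlier results of these data known. T cells without plasma cell genes, thinned cells and the T cell receptor ratio were added after seeing the data.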

Additional observations from a re-analysis of the deposited data

Results flagged for a closer look

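For 3 members the difference between KO and WT plasma cells pointed one way in all 3 colon captures and the other way in all 3 lamina propria captures. The edgeR interaction, KO minus WT in the colon minus the same in the lamina propria, was -2.12 on the log2 scale for Ighm (SE 0.86, adjusted p = 0.330). The log2 ratios of KO to WT behind it were -0.89, -0.93 and -2.31 in colon captures 1 to 3 and 1.72, 0.25 and 0.81 in the lamina propria. For Igkc the interaction was 0.65 (SE 0.18, adjusted p = 0.166, edgeR), from 0.29, 0.12 and 0.29 in the colon and -0.15, -0.11 and -0.07 in the lamina propria. For Jchain it was 0.47 (SE 0.18, adjusted p = 0.303, edgeR), from 0.19, 0.08 and 0.09 in the colon and -0.09, -0.01 and -0.02 in the lamina propria. None of the 3 passed the threshold. At an unadjusted p under 0.05 by edgeR, the interaction had 1573 of all 12327 genes. With the stricter gate the colon difference turned sign for Ighm (0.86 in place of -1.26) and for Jchain (-0.046 in place of 0.37), and with genotype taken by hashtag share per cell it was -0.056 for Jchain, so the opposite directions of these 2 members depend on the gate, and for Jchain also on the assignment of cells. For Ighm and Jchain the interaction was not fitted in those settings, and the B cell marker sums of colon plasma cells also differed by genotype.

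In the same plasma cells, 2 shares moved in opposite directions in every capture of the 2 tissues. The Ighm share of heavy chain constant molecules was lower in KO than in WT in the colon and higher in the lamina propria, with a difference of differences of -0.593 percentage points. The share of cells with mixed isotypes gave -1.74 percentage points, lower in KO in the colon and higher in the lamina propria. The difference between tissues was not tested for either share.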

How the results depend on the processing

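Of the alternative values for single members, 644 kept their direction and their side of the threshold, 31 moved past the threshold, 11 lost it and 12 changed sign. Signs changed for Ighg1 in plasma cells between colon and lamina propria (-0.22 per barcode ending, -0.94 in WT cells alone, and -0.40 to 2.59 leaving out a capture), for Ighg2b (-0.27) and Jchain (0.14) there and Jchain between epithelium and lamina propria (0.013) with the stricter gate. They also changed for Ighm in the T gate between colon and lamina propria (0.44 with library totals alone, 0.016 without the top 5% of cells by molecules, 0.69 without plasma cell genes), and for KO against WT in colon plasma cells for Jchain (-0.046 stricter gate, -0.056 genotype by hashtag share per cell) and Ighm (0.86 stricter gate). With library totals alone the median of all genes between colon and lamina propria plasma cells was 0.18 in place of 0.02, calls were 2758 higher and 1308 lower in place of 2379 and 2397, and Igha, Igkc, Iglc1 and Ighd had -2.35, -1.79, -1.79 and 1.73. The colon minus lamina propria difference in lambda cells was -0.549 with the stricter gate, -0.362 with 50 molecules and -0.0492 to 0.957 leaving out a capture, and with the stricter gate KO minus WT in the colon was -0.569 for the IgA share of molecules and -0.324 for IgA cells. The cause of these changes was not tested.

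Counts of genes called between tissues in plasma cells were 4776 for colon minus lamina propria, 3100 to 5478 leaving out a capture (3100 without lamina propria capture 2), and 1678 for epithelium minus lamina propria, with 2581 by DESeq2, 832 with the stricter gate, 108 in WT cells alone and 931 to 1805 leaving out a capture. In WT cells alone the B cell counts were 1980 (colon, from 3867) and 937 (epithelium, from 2256) and the T cell counts 4448 (from 7775) and 5391 (from 9636), and without plasma cell genes the T cell counts were 5038 and 5476. For KO against WT, in the order colon, lamina propria, DESeq2 called 87 and 112 genes in plasma cells (from 4 and 5), no filter on low counts gave 178 and 58, the stricter gate 1 and 13, leaving out the top 5% of cells 19 and 9, no replicate block 1 and 2, and leaving out a capture 3 to 7 and 2 to 3; library totals alone gave 57 in the colon. In B cells (from 3, 1 and 5 in colon, lamina propria and epithelium) no filter gave 190, 72 and 132, no replicate block 0, 0 and 2, and leaving out a capture 1 to 5, 0 to 10 and 3 to 13; DESeq2 gave 5 and 4, and the hashtag share 1 and 7, in the first 2 tissues. In T cells (from 0, 3 and 45) DESeq2 gave 116, 100 and 153, no filter 36, 110 and 371, and leaving out a capture 1 to 6, 1 to 7 and 8 to 148. The colon T cells also had 2 with library totals alone, 2 with the stricter gate, 1 without the top 5%, 38 by hashtag share and 4 without plasma cell genes, lamina propria T cells 5 with the stricter gate and 0 with no replicate block, and epithelial T cells 104 without the top 5% and 102 without plasma cell genes.

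Captures could not be paired across tissues, epithelial plasma cells had no fit by genotype and no value without the top 5% of cells, and the interaction was fitted in a single setting. The epithelium has 88 plasma cells, the IgG and IgM cells of the colon number 44 and 14, and 3 captures per group cannot give a permutation p under 0.1. Antibody molecules are counted under variable or constant genes, and the ratio of these differed between tissues in plasma cells and in B cells. Differences in antibody constant genes between tissues are therefore to be read beside the ratios given for those cells.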

Other observations

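Mki67, a gene of dividing cells, was present in 27.3% of the 1412 colon IgA plasma cells, 29.5% of the 44 IgG cells, 7 of the 14 IgM cells and 54.4% of the 57 cells with mixed isotypes, although the IgM and mixed cells held fewer molecules at the median (13830 and 17898 against 23659). Sdc1, the syndecan marker of mature plasma cells, was present in 90.9% of the IgA cells, 61.4% of the IgG cells, 42.9% of the IgM cells and 24.6% of the mixed cells. IgM and mixed cells had the highest share with Mki67 and the lowest share with Sdc1. These shares pool 3 captures and were not tested.

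A further 72 colon plasma cells had under 10 heavy chain constant molecules and took no isotype. Their median molecule count was 5626, Jchain made up 0.830% of their molecules, 66.7% held Ms4a1 and 15.3% held Sdc1. In the lamina propria all 6691 plasma cells had at least 10 heavy chain constant molecules, and 24 of them were mixed. Free Igha differed between the tissues. It made up 0.651% of molecules in lamina propria T cells without plasma cell genes and 0.0367% in those of the colon. It was present in 99.5% and 74.0% of these T cells. The part of free Igha in the counts of cells under 10 molecules was not tested.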
